A study of Mus musculus with 2 samples.

Results

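The 30 genes described here make cholesterol and fatty acids, control that synthesis, or burn fatty acids. They were read in long-term hematopoietic stem cells (LT-HSCs) of 2-year-old mice. The genes were chosen by name, with earlier results of these data already known, and they were found on the arrays by the gene name of the probe. All 30 were present, with 43 distinct probes on 52 spots, among 22555 named genes. They comprise 12 enzymes of sterol synthesis, 5 regulators of sterol synthesis, 5 genes of fatty acid synthesis and 8 genes of fatty acid oxidation.

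LT-HSCs are the rare bone marrow cells that sustain blood formation for life, and p38α (*Mapk14*) is a stress-activated protein kinase. RNA was hybridized to single-colour Agilent arrays, 1 array per genotype, both on the same slide and in the same scan. The p38αΔ/Δ (p38KO) mice carried CAG-CreERT2, a tamoxifen (TAM)-inducible Cre recombinase driven from a promoter active in most cell types, together with floxed p38α alleles. They received TAM at about 1 year of age and were analysed at 2 years. The p38α+/+ (wild-type) controls were age-matched, TAM-injected, Cre-negative mice with the same floxed alleles, and both groups were C57BL/6J. Deletion was thus not limited to blood cells, and the number of mice behind an array is not given in the sources used here. The labels give the sorted cells as CD150+CD48-Flt3-CD34- LSK (lineage-Sca-1+c-Kit+), the methods also exclude CD41+ cells, and the deposited design text names CD34-Flt3- LSK cells. With 1 array per group, no difference has a replicate check, no test between genotypes was possible, and no p-value is given.

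Cholesterol is built from acetyl-CoA through mevalonate, the isoprenoids and squalene, and the last steps trim lanosterol to cholesterol. The transcription factor SREBP-2, encoded by *Srebf2*, drives the genes of this pathway, and SREBP-1, encoded by *Srebf1*, drives those of fatty acid synthesis. Both are held in the endoplasmic reticulum by SCAP and the INSIG proteins while sterols are plentiful. Fatty acid oxidation runs in the opposite direction: the carnitine palmitoyltransferases bring fatty acids into mitochondria, and acyl-CoA dehydrogenases and the trifunctional protein shorten them. The oxidative route has been linked to the maintenance of HSCs. SREBPs bind sterol regulatory elements in promoters and act together with the factors NF-Y, which binds the CCAAT box, and Sp1, which binds GC boxes.

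The CCAAT box was found for every sterol enzyme with a promoter given here, and a few promoters are shown to let its place be seen. RefSeq (build GRCm38.p6) gave a promoter for 25 of the 30 genes. The 250 bases before each start were searched on both strands, so that CCAAT also appears as ATTGG. All 9 sterol enzymes with a promoter held CCAAT in at least 1 promoter, as did 4 of 5 sterol regulators, 1 of 3 fatty acid synthesis genes and 2 of 8 oxidation genes. Among other genes of the pathways, listed by role, it was found for 7 of 8 sterol enzymes, 3 of 8 genes of SREBP control and cholesterol traffic, 7 of 9 fatty acid synthesis genes and 7 of 14 oxidation genes, so its scarcity in the 8 oxidation genes did not extend to the longer oxidation list. Among all 13540 measured genes with a promoter the share was 39.7%, and among all 32851 promoters of this length it was 33.8%. A gene with several promoters was counted if any of them held the motif. The GC box GGGCGG was found for 8 of 9 sterol enzymes, all 5 regulators, 1 of 3 fatty acid synthesis genes and 6 of 8 oxidation genes, against 54.3% of measured genes and 32.7% of promoters. The E-box CACGTG was found for 1 of 9 sterol enzymes, 2 of 5 regulators and 0 of 11 others, against 8.69% of measured genes and 6.02% of promoters. A form of the sterol regulatory element, TCACNCCAC, was found only for *Hmgcs1* among the 25 genes, against 1.2% of measured genes and 1.05% of promoters. These are matches of letters, and binding was not measured. The 100 bases around the matches are given 5′ to 3′ on the strand of the gene, with every match of the CCAAT box (either strand) and of the sterol element in capitals. The first 6 are sterol genes that were lower on the array labelled p38αΔ/Δ. They are examples, and a link between CCAAT and the difference was not tested. *Mvk*, with 5 CCAAT matches, and *Srebf1* and *Cpt1a*, with 1 each, were higher at their brightest probes. *Acaca*, with 0, was lower.

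Hmgcs1 (chr13:119690214-119690313, plus strand): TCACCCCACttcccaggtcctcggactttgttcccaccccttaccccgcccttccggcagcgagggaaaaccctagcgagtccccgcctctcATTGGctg
Mvd (chr8:122443423-122443522, minus strand): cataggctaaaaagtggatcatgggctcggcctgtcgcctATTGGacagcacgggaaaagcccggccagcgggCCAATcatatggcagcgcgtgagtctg
Idi1 (chr13:8885506-8885605, plus strand): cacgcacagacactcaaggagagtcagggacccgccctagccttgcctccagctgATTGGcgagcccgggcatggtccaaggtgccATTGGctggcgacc
Lss (chr10:76531505-76531604, plus strand): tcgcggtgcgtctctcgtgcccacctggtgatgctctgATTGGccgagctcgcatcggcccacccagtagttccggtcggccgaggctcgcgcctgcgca
Srebf2 (chr15:82147134-82147233, plus strand): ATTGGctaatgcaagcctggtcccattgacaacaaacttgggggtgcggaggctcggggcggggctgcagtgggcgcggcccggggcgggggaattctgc
Insig1 (chr5:28071196-28071295, plus strand): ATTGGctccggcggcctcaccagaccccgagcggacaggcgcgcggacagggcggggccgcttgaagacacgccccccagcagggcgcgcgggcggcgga

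*Hmgcs1* has 4 such matches, of which 2 lie in the stretch shown. In *Mvd*, *Idi1*, *Lss*, *Srebf2* and *Insig1* every match lies in it. The next pair contrasts *Fasn*, where 3 matches stand close together and a pair of them overlaps, with *Acadl*, an oxidation gene with none.

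Fasn (chr11:120824548-120824647, minus strand): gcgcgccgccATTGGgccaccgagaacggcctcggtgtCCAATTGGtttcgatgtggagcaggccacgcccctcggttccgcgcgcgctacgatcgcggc
Acadl (chr1:66863310-66863409, minus strand): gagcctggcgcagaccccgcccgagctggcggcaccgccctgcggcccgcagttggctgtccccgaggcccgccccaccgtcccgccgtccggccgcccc

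**Figure D1:**
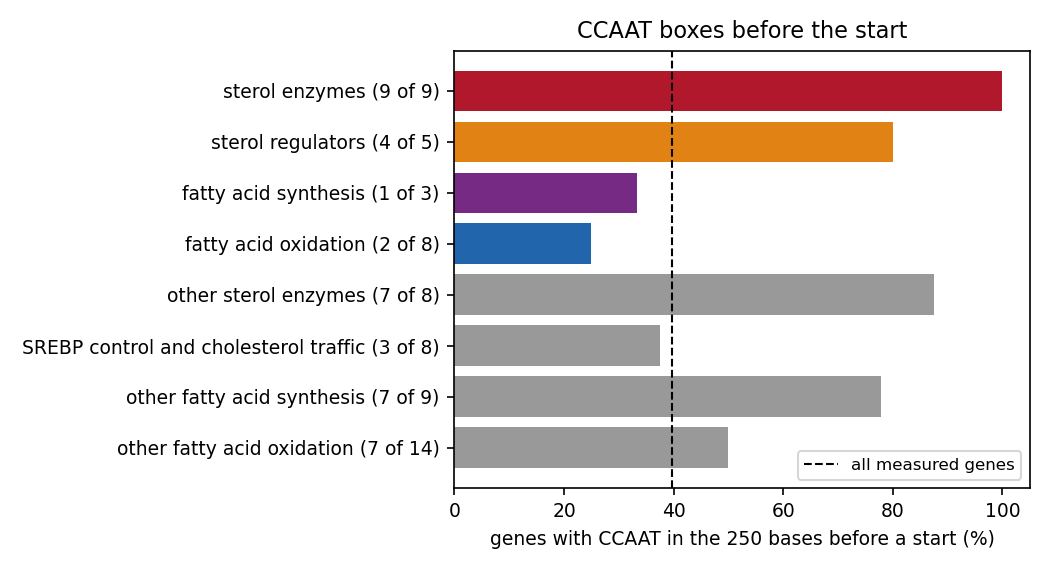
Share of genes (%) with CCAAT on either strand in the 250 bases before a start, for each gene list, with the number of genes beside its name. The dashed line marks the 39.7% of all measured genes, above which lie both sterol enzyme lists (9 of 9 and 7 of 8), the regulators (4 of 5), the other fatty acid synthesis genes (7 of 9) and the other oxidation genes (7 of 14), and below which lie the 3 fatty acid synthesis genes, the 8 oxidation genes and the SREBP control list (3 of 8).

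The values are log2 signals of the scanner, background-subtracted by its software, relative to each array's 75th percentile, and each gene is given by its brightest probe. A value of 0 is thus the signal at the 75th percentile of the array. Levels of different genes come from different probes and are not compared with each other. All 30 genes were well above background on both arrays at these probes, so none of these values is a bound. The spot error given with a difference is how far 2 single spots, 1 per array, scatter in their log2 difference at that brightness (as an SD), taken from 276 probes spotted at least 5 times. It was 0.10 above a mean level of 2, 0.11 from 0 to 2, 0.18 from −2 to 0 and 0.39 below −2. It is the error within an array and not the spread between mice, which is unknown.

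Across the series, the share of probes well above background was 67.9% for p38α+/+ and 69.0% for the array labelled p38αΔ/Δ. The targeted gene *Mapk14* had a log2 level of 2.34 for p38α+/+ and 2.31 for p38αΔ/Δ, so the genotype is taken from the labels, and every direction below rests on them. The paper reports deletion of the gene in mice on this TAM schedule, measured by genomic qPCR in peripheral blood cells, not in the sorted cells of these arrays. Of the 8 LT-HSC markers examined (among them *Procr*, *Slamf1* and *Hlf*), all were well above background on both arrays and 7 were lower on the array labelled p38αΔ/Δ, with a median log2 difference of −0.78 and a log2 summed level of 7.09 against 6.77. All 5 neutrophil markers were higher (median 1.99, summed level 2.38 against 4.27), and so were all 5 B cell markers (0.82, summed level 1.27 against 4.09). *Jchain*, the joining chain of secreted antibodies, at 0.18 and 3.93, carried most of the latter difference, and without it the summed level of the other 4 was 0.35 against 0.85. Of 5 adipocyte markers 4 were measured, with log2 summed levels of −1.29 and −1.04, and *Lep* was not measured. Summed levels of the monocyte, T and NK cell, erythroid, megakaryocyte, and stromal and endothelial lists differed by at most 0.31, and of 3 liver markers *Alb* and *Ttr* were not measured. For p38α+/+, 4 of 5 B cell markers were well above background, and 3 of 4 each of the measured monocyte and adipocyte markers. The remaining marker of each list was set to the lowest level that passed, so its difference is a bound. The B cell median of 0.82 is such a difference and thus a lower bound. The part of these marker shifts in the results below was not tested. In bulk RNA, fewer cells of one type and less RNA per cell cannot be told apart.

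Sterol and fatty acid synthesis genes were mostly lower on the array labelled p38αΔ/Δ, by a modest amount, whereas the 8 oxidation genes were close to equal on both arrays. Of the 22 genes of synthesis and its control, 18 were lower and 4 higher, with a median log2 difference of −0.29, a 1.23-fold lower signal. Of the 8 oxidation genes, 6 were lower and 2 higher, with a median of −0.02. Over all 17194 genes measured, meaning above background by the scanner's criterion on either array, 52.4% were lower and the median was −0.03. At least 1.5-fold lower were 5 of the 22 synthesis genes and 0 of the 8 oxidation genes, against 15.6% of all genes, and at least 2-fold lower were 2 of the 22 and 0 of the 8, against 6.71% of all genes. None of the 30 was at least 1.5-fold higher, against 12.7% of all genes, or at least 2-fold higher, against 4.11%. The share lower was 81.8% for the synthesis genes and 75% for the oxidation genes. Differences larger than 2 spot errors were found for 10 lower and 2 higher synthesis genes, and for 0 lower and 1 higher oxidation gene. Among the 15646 genes well above background on both arrays, 28.7% were lower and 21.9% higher by more than 2 spot errors.

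**Figure D2:**
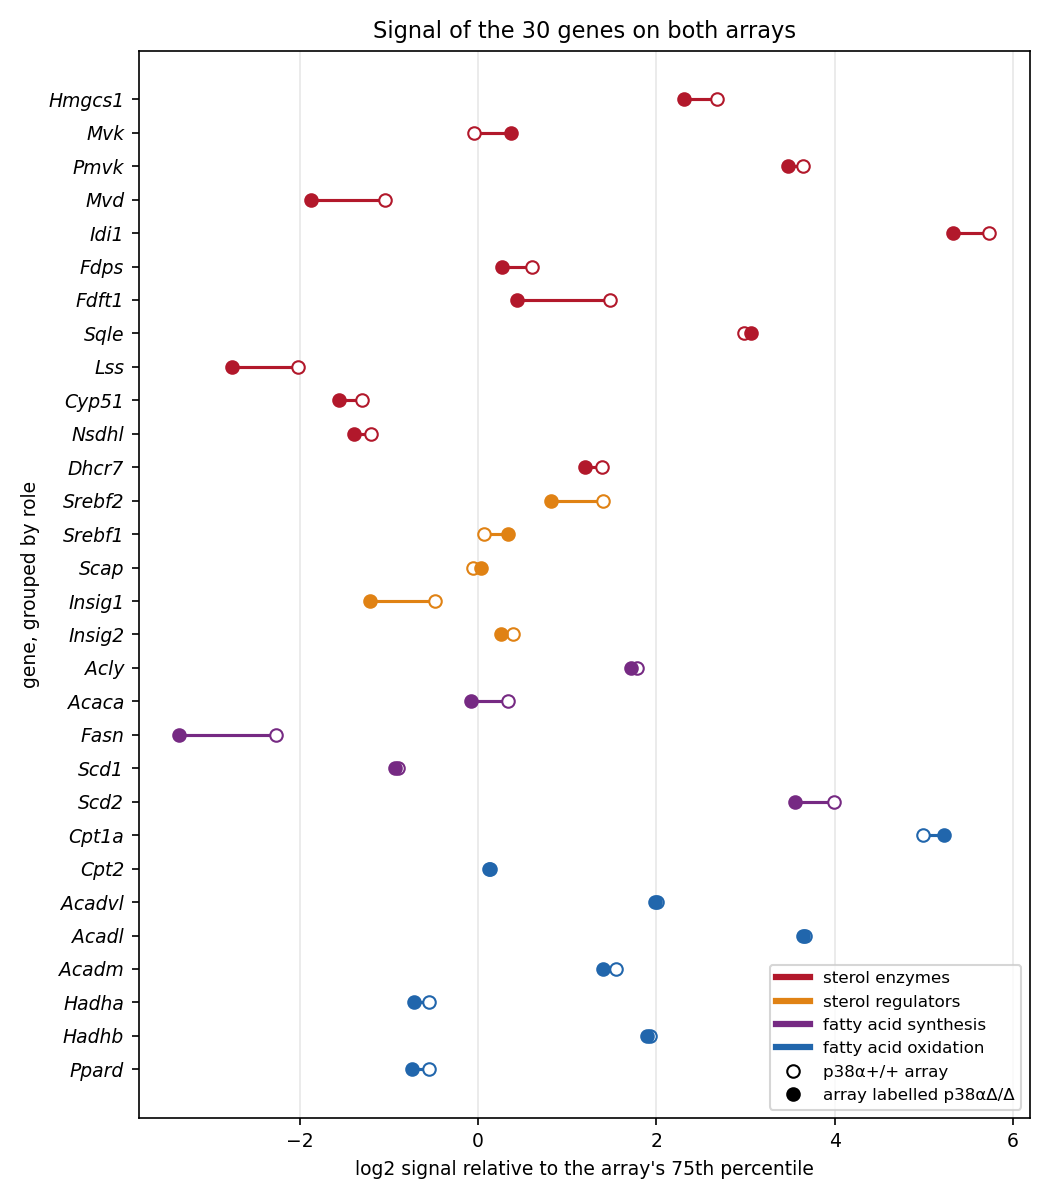
Log2 signal of the 30 genes relative to the array's 75th percentile (x axis) for p38α+/+ (open circles) and p38αΔ/Δ (filled circles), 1 array each, coloured by role. The filled circle lies left of the open one for 18 of 22 synthesis genes, and both nearly coincide for most of the 8 oxidation genes.

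The first part of sterol synthesis makes mevalonate and turns it into isoprenoid units. *Hmgcs1*, which encodes the synthase that forms HMG-CoA, had a level of 2.68 for p38α+/+ and 2.31 for p38αΔ/Δ, a log2 difference of −0.37 with a spot error of 0.10. *Mvd*, whose enzyme makes isopentenyl diphosphate, was at −1.04 and −1.87, a difference of −0.83 with a spot error of 0.18. *Idi1*, which encodes the isomerase of that product, went from 5.73 to 5.33, a difference of −0.40 with a spot error of 0.10. These 3 genes were lower by at least 3 spot errors. The kinases between HMG-CoA and *Mvd* did not follow as clearly. *Pmvk*, phosphomevalonate kinase, went from 3.64 to 3.47, a difference of −0.17, within 2 spot errors. *Mvk*, mevalonate kinase, was 1.32-fold higher, at −0.04 and 0.36, while its dimmer probe was lower, with a difference of −0.58. Its direction is therefore uncertain.

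The middle steps join isoprenoids into squalene and close its rings. *Fdps*, farnesyl diphosphate synthase, went from 0.60 to 0.27, a difference of −0.33 with a spot error of 0.11. *Fdft1*, squalene synthase, the first enzyme committed to sterols, had the largest difference of the 12 enzymes, also with normexp. It stood at 1.48 for p38α+/+ and at 0.44 for p38αΔ/Δ, a 2.05-fold lower signal (log2 difference −1.04, spot error 0.11). Its brightest probe lies on the minus strand of chromosome 14 in the build mm9 of the array design, and its ends at 63765750 and 63769990 stand far further apart than the probe is long, so it crosses an intron. A second *Fdft1* probe was lower too (−1.58). *Sqle*, squalene epoxidase, a rate-limiting step, did not share this: it was at 2.98 and 3.06, a difference of 0.09 within the spot error. *Lss*, lanosterol synthase, was 1.67-fold lower, at −2.02 and −2.76, but at this low level the difference of −0.74 was less than 2 spot errors of 0.39.

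The last steps convert lanosterol to cholesterol, and the 3 enzymes measured there differed little. *Cyp51*, lanosterol demethylase, was at −1.30 and −1.56 (difference −0.26), *Nsdhl*, a sterol dehydrogenase, at −1.20 and −1.39 (−0.20), and *Dhcr7*, which catalyses the final reduction, at 1.39 and 1.20 (−0.19). All 3 differences were within 2 spot errors, and a dimmer *Nsdhl* probe was higher (0.83). In all, 10 of the 12 enzymes were lower (median −0.29), 3 of them at least 1.5-fold.

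**Figure D3:**
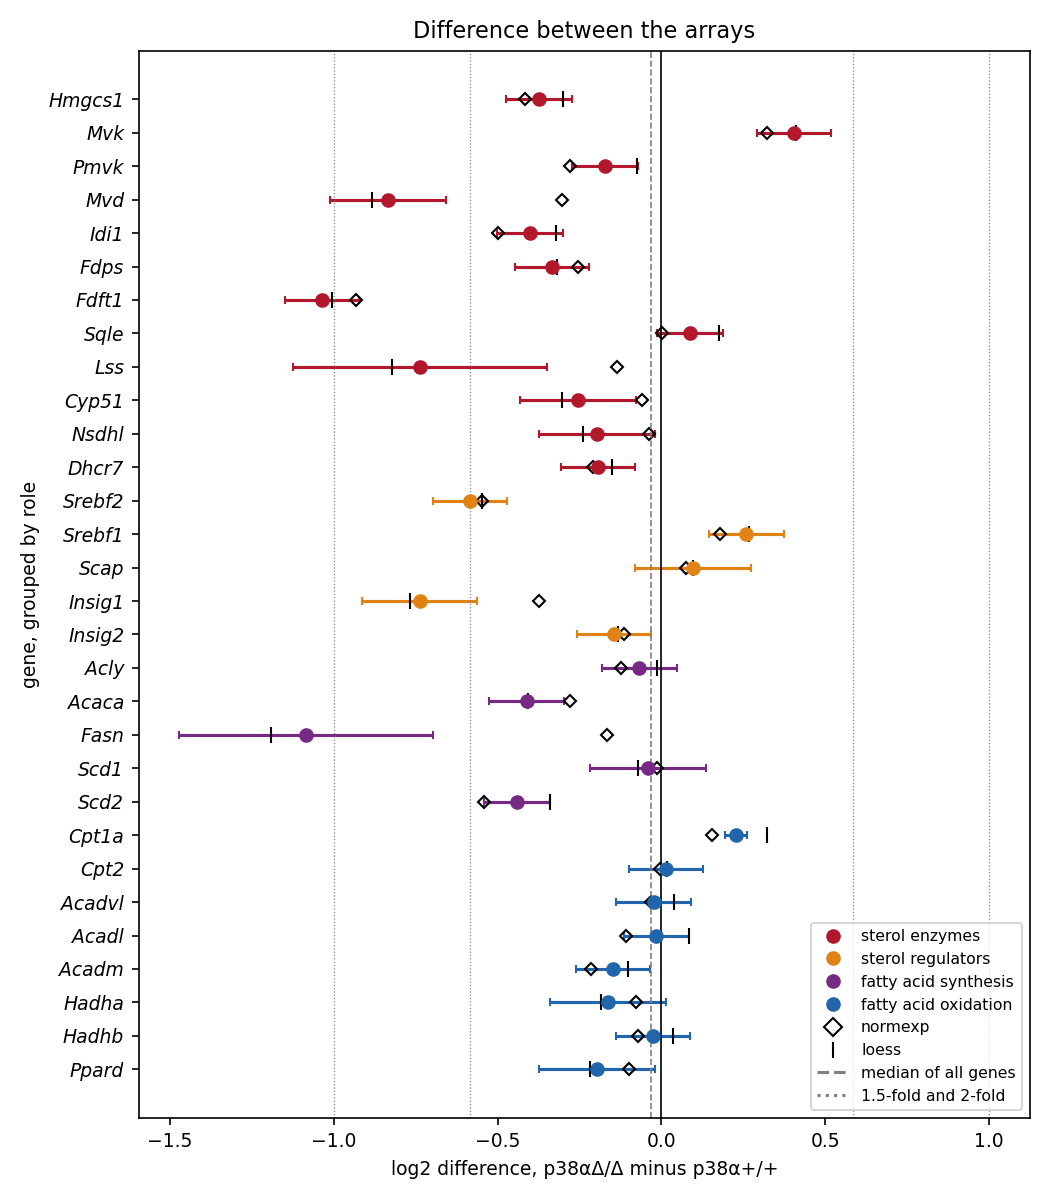
Log2 difference of each of the 30 genes, p38αΔ/Δ minus p38α+/+, with bars of 1 spot error (standard deviation of a difference between spots, not between mice). Diamonds show normexp background correction, ticks a loess between the arrays, the dashed line the median of all genes (−0.03), and dotted lines 1.5-fold and 2-fold; *Fasn*, *Lss*, *Mvd* and *Insig1* lie past 1.5-fold but not with normexp, and *Fdft1* does with both.

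Among the regulators, *Srebf2* and *Insig1* were lower and the others were near equal or higher. *Srebf2* went from 1.40 to 0.82, a 1.5-fold lower signal at a log2 difference of −0.58, just short of the 1.5-fold threshold, and its second probe gave −0.67. *Insig1*, which retains SCAP in the endoplasmic reticulum and is itself a target of SREBPs, went from −0.48 to −1.22, a 1.67-fold lower signal. Both differences exceeded 4 spot errors. By contrast, *Srebf1* went from 0.07 to 0.33, 1.2-fold higher with a difference of 0.26 and a spot error of 0.11. *Scap*, the escort of the SREBPs, was at −0.06 and 0.04, within the spot error. *Insig2* was at 0.40 and 0.25, a difference of −0.14, while its other probe gave 0.15, so no direction can be given. The genes for the 2 SREBPs thus differed in opposite directions, *Srebf2* lower and *Srebf1* higher.

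All 5 genes of fatty acid synthesis were lower on the array labelled p38αΔ/Δ, with a median log2 difference of −0.41. *Fasn*, fatty acid synthase, was at −2.27 and −3.35, a 2.12-fold lower signal (−1.08, spot error 0.39), which with normexp background correction, where a constant is added to each signal, was −0.17. *Fasn* and *Fdft1* were the 2 genes at least 2-fold lower, and they did not differ from each other beyond the spot error. *Acaca*, acetyl-CoA carboxylase, which makes malonyl-CoA, was at 0.33 and −0.08 (−0.41). All 4 *Acaca* probes were lower, from −0.16 to −1.49. *Scd2*, a desaturase that introduces a double bond into stearate, was at 4.00 and 3.56, 1.36-fold lower with a spot error of 0.10. *Acly*, which supplies cytosolic acetyl-CoA, was at 1.78 and 1.71 (−0.07), and *Scd1*, the other stearoyl-CoA desaturase, was at −0.89 and −0.94 (−0.04), both within the spot error.

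The oxidation genes were nearly level. *Cpt1a*, whose enzyme admits fatty acids to mitochondria, is the best measured of the 30 because its brightest probe was spotted repeatedly. Over 9 spots of the p38α+/+ array it ran from 4.90 to 5.09 (mean 4.99, SD 0.07), and over 10 spots of the array labelled p38αΔ/Δ from 5.12 to 5.28 (mean 5.22, SD 0.05). The spots did not overlap, and the signal was 1.17-fold higher on the latter array (difference 0.23). Spots of one array share 1 RNA sample and are not replicates of a genotype. The dimmer *Cpt1a* probe went the other way (−0.99), and so did that of *Cpt2*, the inner-membrane partner, at −1.18 against 0.01 for the brighter probe (0.12 and 0.13).

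The dehydrogenases and the trifunctional protein showed small differences throughout. *Acadvl*, for very long chains, was at 2.01 and 1.98 (−0.02). *Acadl*, for long chains, was at 3.66 and 3.65 (−0.02). *Acadm*, for medium chains, was at 1.55 and 1.40 (−0.15). None of the 3 exceeded 2 spot errors. The subunits of the trifunctional protein, *Hadha* (−0.55 and −0.72, difference −0.16) and *Hadhb* (1.92 and 1.90, difference −0.02), and the nuclear receptor *Ppard* (−0.55 and −0.74, difference −0.20), a regulator of oxidation, were also within 2 spot errors.

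**Figure D4:**
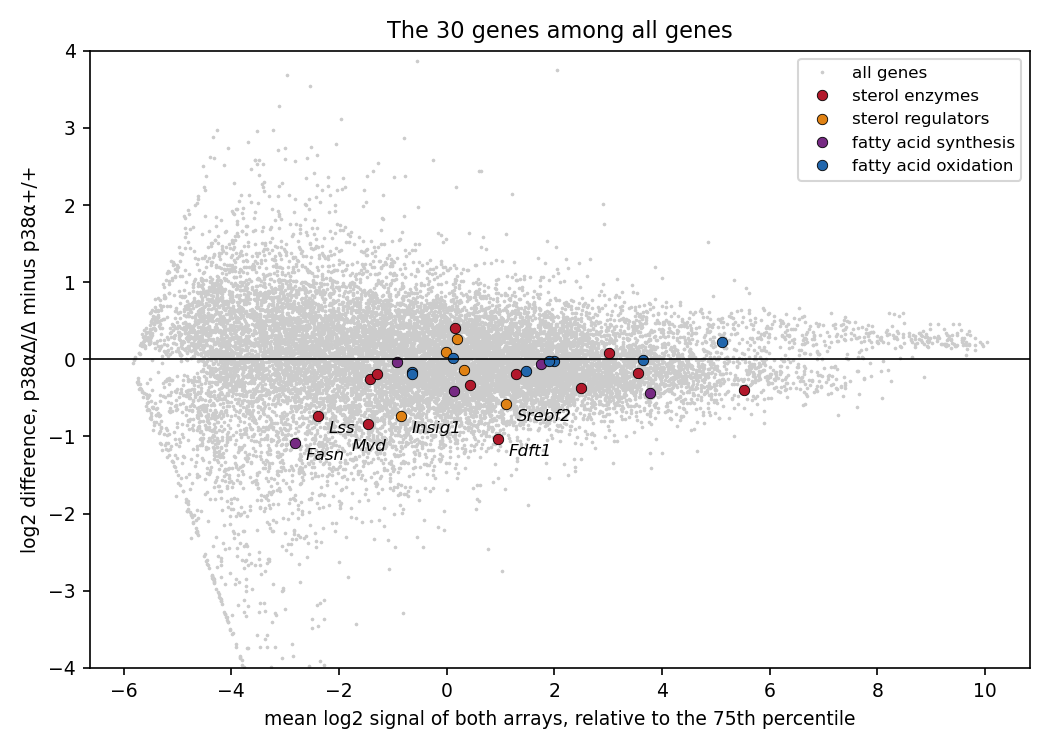
Log2 difference, p38αΔ/Δ minus p38α+/+ (y axis, shown from −4 to 4), against the mean log2 signal of both arrays (x axis), with all 17194 genes in grey and the 30 genes coloured by role. The 7 genes with a mean level above 2 and the dimmer ones alike lie mostly at or below 0, and the scatter of all genes widens to the left.

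The lower values of the synthesis genes were not limited to dim signals, where all genes scatter most. Among 3450 genes with a mean level above 2, the median difference was −0.09 and 58.9% were lower, and the 5 synthesis genes there had a median of −0.37 with 4 lower. From 0 to 2, the median of 4105 genes was −0.08 and 57.4% were lower. The 9 synthesis genes there had a median of −0.19 with 7 lower. From −2 to 0, the median of 4235 genes was −0.02 and 51.3% were lower. The 6 synthesis genes there had a median of −0.23 with 5 lower. Below −2, where 5404 genes had a median of 0.08, *Lss* and *Fasn* were the only ones of the 30. Of the 5 synthesis genes past 1.5-fold, only *Fdft1* had a mean level above 0.

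The probes of a gene often disagreed. For 10 of the 30 genes more than 1 probe was well above background on both arrays, and 7 of their 12 other probes had the sign of the brightest one. *Acaca*, *Acly*, *Fdft1*, *Pmvk* and *Srebf2* were lower at every such probe, whereas *Mvk*, *Nsdhl*, *Insig2*, *Cpt1a* and *Cpt2* had probes of both signs. Of all 42 member probes well above background on both arrays, 34 were lower for p38αΔ/Δ, against 50.3% of all 35798 such probes. Probes of one gene are not independent, and a pair of the *Acaca* probes overlaps almost wholly. A second *Hmgcs1* probe was below background on both and gives no value. Averaged over a gene's probes, the 8 oxidation genes had a median of −0.16 and all 8 were lower, so the level state of these genes rests on their brightest probes.

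**Figure D5:**
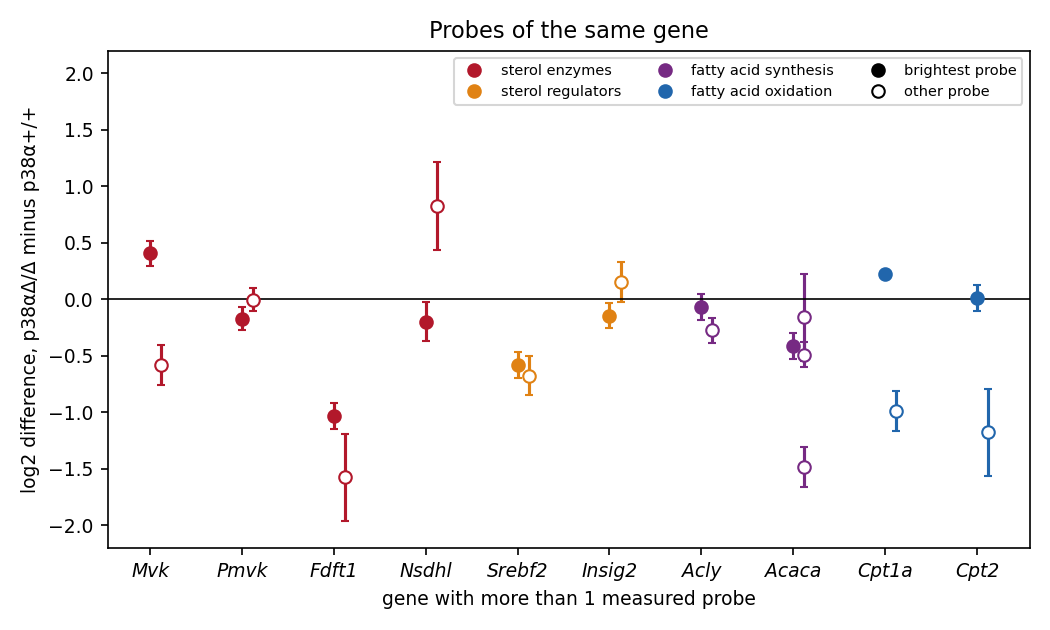
Log2 difference, p38αΔ/Δ minus p38α+/+, of each probe well above background on both arrays, for the 10 genes with more than 1 such probe (filled, brightest probe; open, other probes), with bars of 1 spot error. Both *Fdft1* and both *Srebf2* probes lie below 0, while those of *Mvk*, *Nsdhl*, *Insig2*, *Cpt1a* and *Cpt2* lie on either side of it.

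Other genes of the same pathways were examined from lists drawn up by role. Beside the counts that follow, 52.4% of all 17194 genes measured were lower. At least 2-fold lower were 6.71% of all genes, and at least 2-fold higher 4.11%. Of 10 further sterol enzymes, 9 were lower (median −0.39). *Ebp*, the sterol isomerase, was at 1.47 and 0.45 (2.03-fold lower), and *Sc5d*, the sterol desaturase, at −0.21 and −1.29 (2.12-fold lower). These 2 of 10 were the ones at least 2-fold lower. Together with the 12 enzymes above, the sterol lists were lower at 19 of 22 genes at their brightest probes. This count takes the sign alone, whatever the size of the difference. *Mvk*, *Sqle* and *Lbr* were higher there, but the direction of none of them is certain. The dimmer *Mvk* probe gave −0.58, and *Sqle* (0.09) was within the spot error. *Lbr* gave 0.12 at its brightest probe and −0.12 at a dimmer one, also well above background on both arrays. Several of the 19 lower genes are as uncertain. *Pmvk*, *Lss*, *Cyp51*, *Nsdhl* and *Dhcr7* were within 2 spot errors, and a dimmer *Nsdhl* probe gave 0.83. *Acat2* gave −0.03, and *Ggps1* gave −0.42 at its brightest probe and 0.04 at its dimmest.

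Of 13 genes of SREBP processing and cholesterol traffic, 9 were lower and 4 higher (median −0.49). *Soat1*, which esterifies cholesterol for storage, was 2.25-fold lower (−1.65 and −2.82). *Nr1h3*, the sterol sensor LXRα, was at 0.10 and −1.0, 2.15-fold lower, and its second probe gave −1.39. Its relative *Nr1h2*, LXRβ, went the other way, from 1.52 to 2.64, 2.17-fold higher.

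Of 10 further genes of fatty acid synthesis, elongation and desaturation, 7 were lower and 3 higher (median −0.44). At least 1.5-fold lower were 2 of them, against 15.6% of all genes, and at least 1.5-fold higher also 2, against 12.7%. The latter were *Mlxipl*, at 6.02 and 6.60 (0.59, and 0.46 at its other probe), and *Fads3*, at −1.51 and −0.75 (0.76, and 0.07 at its other probe). *Me1*, malic enzyme, a source of NADPH for lipid synthesis, was 3.24-fold lower, at −1.11 and −2.81, and its other probes gave −1.03 and −1.25, the latter with a signal not well above background for p38αΔ/Δ. The other 17 oxidation genes did not share the level state of the 8 above: 15 were measured, 13 were lower and 2 higher, and their median was −0.34. *Etfb*, a subunit of the flavoprotein that takes electrons from the dehydrogenases, was at 4.69 and 4.28 (−0.41), and *Decr1*, which handles unsaturated chains, at 3.93 and 3.45 (−0.48). *Cpt1c* was 2.17-fold lower at its brightest probe (−0.89 and −2.01), with 0.40 at the other. *Ppara*, the receptor that drives oxidation genes in liver, was at −1.66 and −0.71, 1.93-fold higher at its brightest probe. A dimmer *Ppara* probe, also well above background on both arrays, gave 0.18. With normexp none of the 7 genes given as at least 2-fold different remained so, though all kept their direction. The log2 difference was then −0.31 for *Soat1*, −0.49 for *Cpt1c*, −0.54 for *Sc5d*, −0.62 for *Me1*, −0.73 for *Nr1h3*, −0.90 for *Ebp* and 0.97 for *Nr1h2*. *Lbr*, *Acat2*, *Ggps1*, *Mlxipl*, *Fads3*, *Jchain*, *Etfb*, *Decr1* and *Ppara* were named after their values were seen. A contrast between lower synthesis and level oxidation therefore held for the 8 oxidation genes at their brightest probes and not for the longer list.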

How the data were processed

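LT-HSCs of p38α+/+ and p38αΔ/Δ mice were profiled with 1 array per genotype. The authors deposited the intensity of each spot from Agilent Feature Extraction 11.5.1.1, per the file headers background-subtracted and detrended within the array but not normalized between arrays. They also deposited normalized log2 values for 35795 probes, which equal the log2 signal minus 1 constant per array (7.16 and 6.84).

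Control spots and spots marked as outliers were left out, which removed 19 of 55681 probes. The spots of each probe were averaged on the log2 scale, and each array's 75th percentile (7.16 and 6.85) was subtracted. Of 55662 probes 57.1% were named through RefSeq (GRCm38.p6). Each gene took the value of its brightest probe. A gene entered if either array had it well above background (17194), and a dim signal was set to no less than the lowest one that passed this criterion. The number of arrays limits the precision. The 30 genes, lists, promoter motifs and named genes were chosen with earlier results of these data known. The genes named are all 30, and of other pathway genes those at least 2-fold different, apart from those said to be named after their values were seen. Some genes of the lists are not reported here by name. The alternatives are in the closing section. The calculations were tested on simulated data. Tools were limma 3.58.1 in R 4.3.3, and statsmodels 0.14.6 and pandas 2.3.3 in Python 3.11.15.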

Additional observations from a re-analysis of the deposited data

How the results depend on the processing

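The median of the 12 sterol enzymes stayed below 0 under all 9 alternatives (−0.30 to −0.22), with 9 or 10 of the 12 lower. Several of these alternatives could change it little or not at all, as given at the end of this section. That of the 22 synthesis genes ran from −0.30 to −0.19, the latter with normexp background correction (offset 50), where the median of all genes was 0.05. With normexp, 1 of the 30 genes was at least 1.5-fold lower (*Fdft1*) in place of 5, and 0 at least 2-fold lower in place of 2, and over all genes 896 and 429 were at least 1.5-fold lower and higher in place of 2679 and 2181, and 117 and 48 at least 2-fold in place of 1154 and 706. *Fasn* (−0.17), *Lss* (−0.14), *Mvd* (−0.30) and *Insig1* (−0.37) were the genes that lost the 1.5-fold difference. The median of the 5 fatty acid synthesis genes was −0.17 with normexp in place of −0.41. The offset is added to every signal, which by construction shrinks differences of dim genes. The median of the 8 oxidation genes was −0.16 when each gene's probes were averaged and −0.16 with the median of its detected probes, and above 0 after the loess (span 0.3, 0.03) and quantile normalization (0.02). The median of the 5 sterol regulators, examined under alternatives chosen after seeing the data, was 0.0025 with the mean and 0.0025 with the median of probes, in place of −0.14. Normexp and the mean of probes each moved 8 of the 30 genes beyond the spot error, the median of detected probes 7 and the loess 1. With the mean of probes 1 gene was at least 1.5-fold higher, *Hmgcs1* (0.64), through a probe not well above background on either array. Quantile normalization, centring on detected probes, the authors' normalized values, the filter on both arrays and no filter or floor moved none of the 30 genes beyond the spot error. Neither filter setting could change the 30 genes, which were all well above background on both arrays. Centring and the authors' values differ from the main values by 1 constant per array, so they could only shift all genes alike. No replicate could be left out, and no paired analysis was possible because each genotype has 1 array.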
